A study of Mus musculus with 91 samples.

Results

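Oxidative phosphorylation is carried out by 5 enzyme complexes of the inner mitochondrial membrane, and the genes described here are those of their parts that are encoded in the nucleus. The members were all genes whose mouse symbol, looked up from the Ensembl identifier, begins with Nduf, Uqcr, Atp5 or Cox4 to Cox8, or is Sdha, Sdhb, Sdhc or Sdhd, leaving out symbols that contain -ps. Of 97 such symbols, 92 had a row in at least 1 of the 8 deposited count tables, which together held 20378 genes, and 85 had a row in every table. Expression of Cox6c2, Cox7b2, Cox8c, Ndufb4c and Ndufs6b was not analysed here. Ndufs3 and Uqcrc1 were analysed in 3 tables (168 h, high dose and restimulation), and 5 genes of low level (Cox4i2, Cox6a2, Cox8b, Ndufa11b and Ndufa4l2) had rows in some tables. After the filter on low counts, between 85 (in vitro) and 89 (72 h) members were tested in a table.

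Foxp3-expressing regulatory T cells (Tregs), which restrain other immune cells, were sorted from spleen, and their total RNA was sequenced after removal of ribosomal RNA. All animals were C57/BL6 mice whose Foxp3-expressing cells are marked by a red fluorescent reporter, and their ages are not in the labels. Outside the in vitro table, the animals had been injected with FP, IL2 or PBS. FP is mIL-2/CD25, a fusion of mouse interleukin-2 with its receptor chain CD25, and IL2 is mouse interleukin-2 itself (mIL-2). The in vitro table is of cells treated with IL2 or PBS in vitro. Tregs depend on interleukin-2, which they bind through a receptor that contains CD25. At 1.5 h and 16 h after injection there were 4 libraries each of FP, IL2 and PBS. At 4 h there were 3 of FP, 4 of IL2 and 3 of PBS, at 72 h 4 of FP, 3 of IL2 and 3 of PBS, and at 168 h 4 of FP and 3 of PBS. A table labelled high dose and one of 1.5 h in vitro held 3 libraries of IL2 and 3 of PBS each, and neither the dose nor the time of the high-dose table is in the labels. The restimulation table (1.5 h after the second injection) held 4 libraries after FP and a second FP, 3 labelled single, after PBS and then FP, and 3 after PBS and a second PBS. Nothing in the labels says that replicates came from separate animals, so the tests speak for the spread among these libraries, which may be technical.

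Electrons enter the chain at complex I, which oxidises NADH, and at complex II, which oxidises succinate and is also an enzyme of the tricarboxylic acid cycle. They pass through complex III and cytochrome c to complex IV, which reduces oxygen. Complexes I, III and IV pump protons, and the ATP synthase uses the proton gradient to make ATP. Complexes I, III, IV and the ATP synthase also contain subunits encoded by the mitochondrial genome, so their assembly needs both genomes, while complex II is wholly nuclear. Activated T cells are known to increase both glycolysis and mitochondrial respiration, and Tregs are known to rely on respiration more than other helper T cells do. The symbol rule also takes in the assembly factors of complex I (Ndufaf genes), which are not part of the finished enzyme, Atp5s (coupling factor B), which is named after the ATP synthase but is not one of its subunits, and Ndufa4, named after complex I and now counted with complex IV.

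Over 73 libraries, totals ran from 12.2 M to 46.1 M counted reads. Treg markers (7 of 7 with a row) summed to between 3063 and 6584 CPM (counts scaled to the size of the library) in every library, markers of B cells to at most 54.9 CPM those of CD8 T and NK cells (3 of 4 with a row) to at most 21.7 CPM and those of erythroid cells and platelets to at most 47.8 CPM. Myeloid markers differed between groups: they summed to 19 to 76.7 CPM in FP libraries at 72 h, against 274 to 683 CPM in PBS libraries, and to 26.2 to 35.2 CPM in FP libraries at 168 h, against 188 to 275 CPM in PBS libraries. The members took 0.312% to 0.827% of a library's reads. The highest share belonged to replicate 1 of IL2 at 4 h (0.827%, against 0.390% to 0.424% in the other IL2 libraries at 4 h). That library stands apart from the other IL2 libraries in most members, and results at 4 h are given with and without it. Shares were uneven in the other 4 h groups too. They were 0.745%, 0.775% and 0.410% in FP replicates 1, 2 and 4, and 0.535%, 0.411% and 0.326% in PBS replicates 1, 2 and 4. The spread between replicates was largest in the high-dose and 4 h tables, with a common biological variation of 40.7% and 38.4%, and smallest in vitro, with 4.48%. In bulk RNA, fewer cells of a type and less RNA per cell cannot be told apart.

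**Figure D1:**
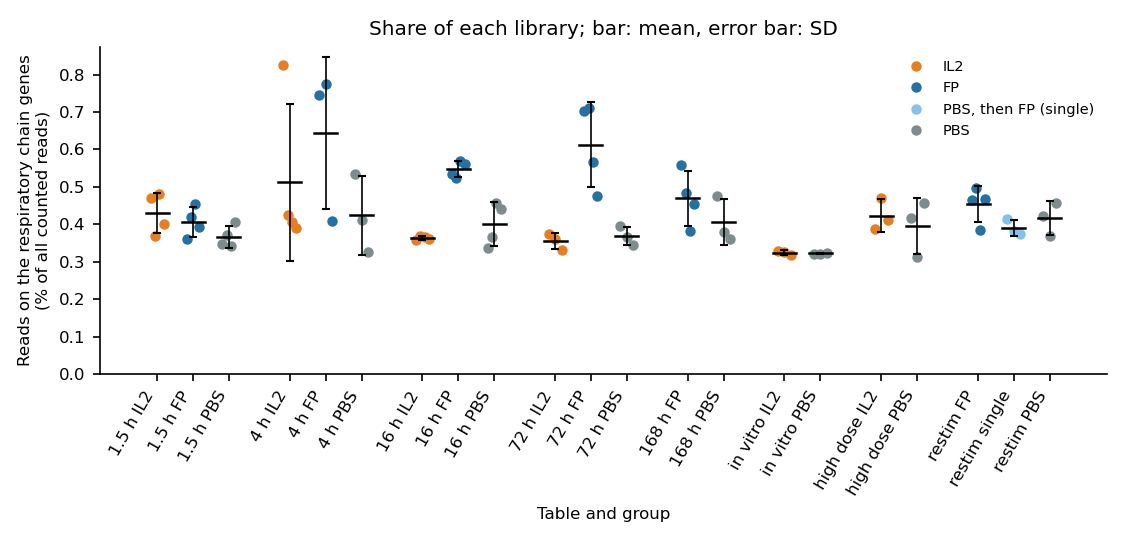
Share of each library's counted reads that fell on the 92 genes (percent, y axis), by table and group (x axis); points are libraries, the thick bar is the mean and the error bar the SD. The 4 FP libraries at 72 h lie between 0.474% and 0.71%, all above the PBS libraries of that table (0.346% to 0.395%), and 1 IL2 library at 4 h lies at 0.827%, apart from the other 3 IL2 libraries. FP replicates 1 and 2 at 4 h lie at 0.745% and 0.775%.

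At 72 h after FP, most nuclear-encoded subunits of all 5 complexes stood above PBS. Of 89 members tested, 67 were higher and 2 lower in FP than in PBS at an adjusted p below 0.01 (edgeR, adjusted over all 18624 genes tested), against 17.3% of all genes higher and 13.1% lower. The median log2 change of the members was 1.05, against -0.05 over all genes. At 16 h after FP, 44 of 87 members were higher and 1 was lower, against 14.4% of all genes higher and 14.3% lower, with a median of 0.43 against -0.05. Of the 44 genes higher at 16 h, 41 were also higher at 72 h, which is 93.2% of the 16 h list and 61.2% of the 72 h list, and the 3 others were Ndufab1, Ndufaf4 and Ndufaf6. The count called in either direction at 72 h was 69, and it was 42 without PBS replicate 3 and 46 without PBS replicate 2. At 72 h the TMM scaling factors were 0.797 to 0.979 in FP libraries, against 1.03 to 1.15 in PBS libraries. The Treg markers summed to 5439 to 6062 CPM in FP libraries, against 3159 to 3692 CPM in PBS libraries, and 8 of 9 myeloid markers were lower (the other, Itgam, was at 0.502 CPM in FP libraries and 0.242 CPM in PBS libraries). At 16 h the myeloid sums overlapped, with 259 to 523 CPM in FP libraries and 338 to 547 CPM in PBS libraries. The part of the scaling factors and of the other cells in the result was not tested.

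**Figure D2:**
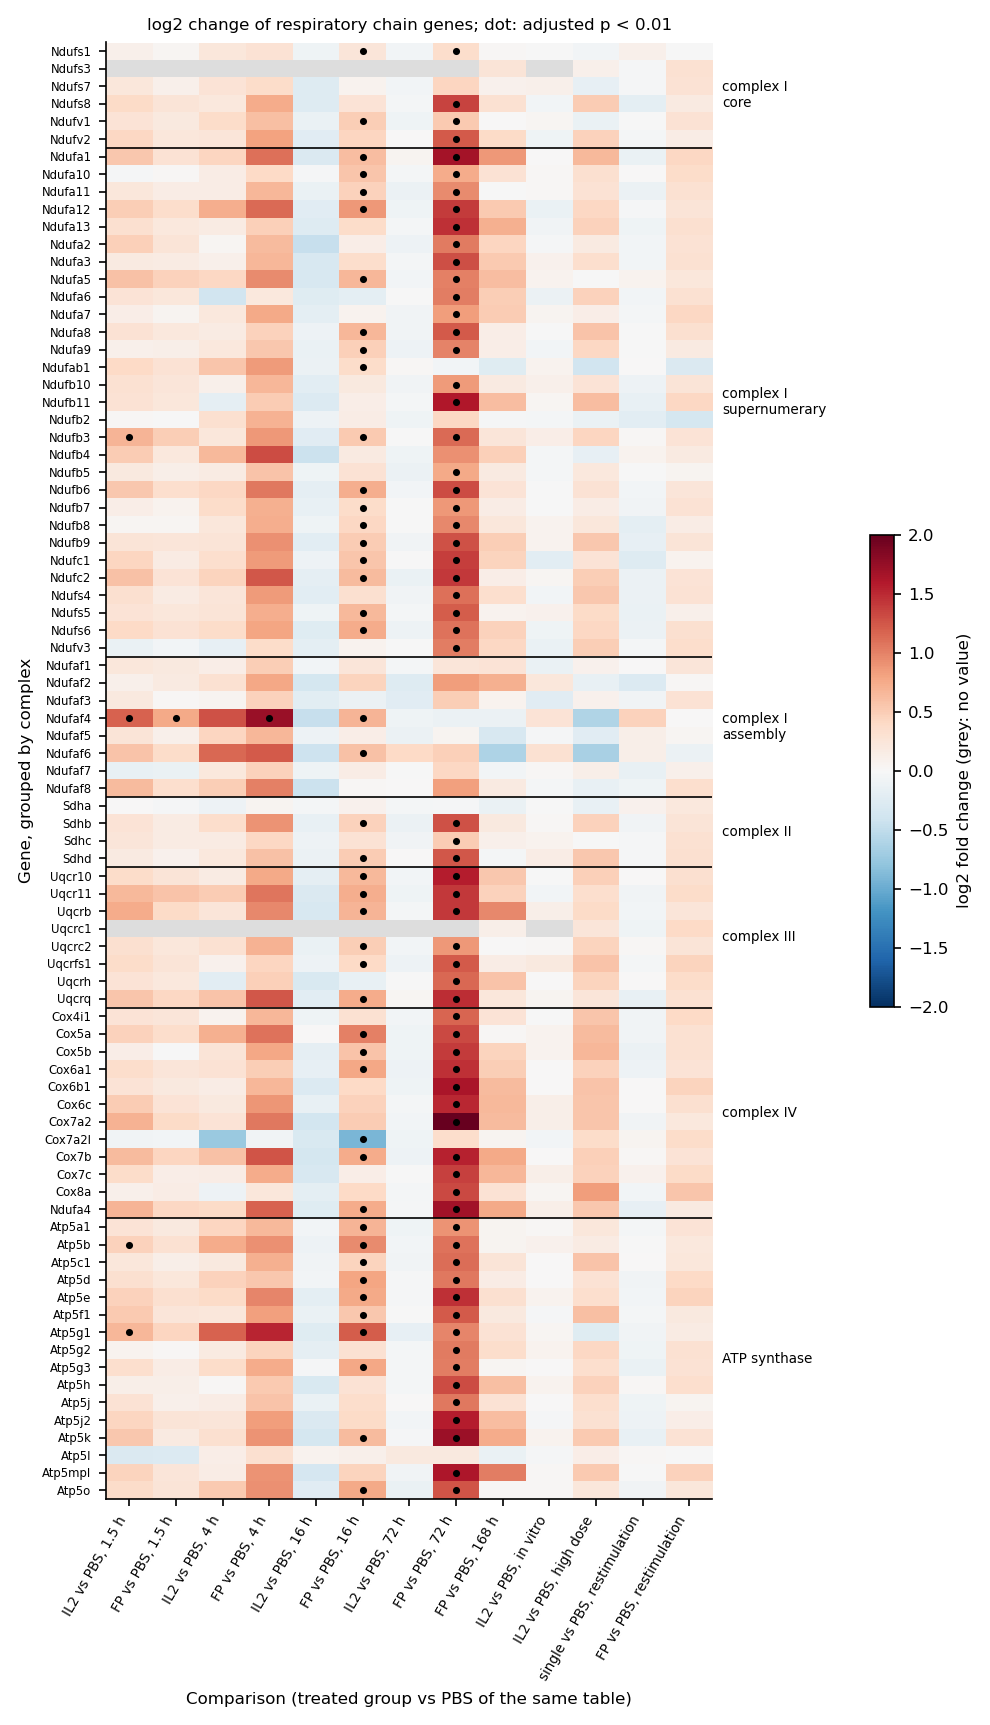
log2 fold change of each gene (rows, grouped by complex, with the low tissue isoforms, Atp5s, Ndufa11b and 1 core subunit of complex I left out) in each treated group against PBS of its own table (columns); red is higher and blue lower in the treated group, grey has no value, and a dot marks an adjusted p below 0.01. The FP columns at 16 h and 72 h hold nearly all dots, and the IL2 columns at 16 h and 72 h hold none.

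Complex I is the largest of the 5, with a catalytic core that carries the flavin and the iron-sulphur clusters, surrounded by supernumerary subunits. Of 6 nuclear core subunits tested at 72 h, 5 were higher in FP, and of 29 supernumerary subunits 26 were higher, with a median log2 change of 1.04. Ndufs8, an iron-sulphur subunit of the core, had 85.7, 73.4, 47.4 and 34.6 CPM in FP libraries, against 25.2, 23.7 and 21.6 CPM in PBS libraries. Its groups did not overlap, and its log2 change was 1.36 ± 0.25 (SE, adjusted p = 0.000998). Among other core subunits, Ndufv2, part of the NADH-oxidising module, changed by 1.22, Ndufv1 by 0.52 and Ndufs1, the largest core subunit, by 0.35, while Ndufs7 was at 0.43 (adjusted p = 0.0136) and was not called. Among supernumerary subunits, Ndufa1 had 56.3, 52.8, 32.7 and 25.6 CPM in FP libraries, against 15.6, 12.9 and 11.1 CPM in PBS libraries, a log2 change of 1.66 ± 0.26 (adjusted p = 0.000285). Ndufb11 (1.60) and Ndufa13 (1.46), further small membrane subunits, followed it. Ndufab1, the mitochondrial acyl carrier protein that also serves fatty acid and iron-sulphur cluster synthesis, was at 25.8 ± 0.656 CPM in FP libraries and 26.7 ± 3.16 CPM in PBS libraries (SD, n = 4 and 3), a log2 change of -0.05 ± 0.10. Ndufb2 and Ndufb4, with log2 changes of 0.41 and 0.91, were the other supernumerary subunits not called.

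Of the 8 assembly factors of complex I, which build the enzyme and then leave it, none was called in FP against PBS at 72 h, with a median log2 change of 0.44 and a range from -0.12 (Ndufaf4) to 0.83 (Ndufaf2). Ndufaf2, Ndufaf3, Ndufaf6 and Ndufaf7, had adjusted p-values of 0.0388, 0.0231, 0.0279 and 0.0379, Ndufaf8 had 0.0166, and the other 3 lay above 0.16. Of 9 assembly factors of complex I whose symbols the rule does not match, 2 were higher (Dmac1, 0.75, and Foxred1, 0.54) and Nubpl, which delivers iron-sulphur clusters, was lower (-0.77). Of all genes, 17.3% were higher and 13.1% lower, and for 9 genes these counts are near those shares. No test compared the assembly factors with the subunits.

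Complex II was split. Sdhb, the iron-sulphur subunit, had 157, 126, 91.8 and 74.5 CPM in FP libraries at 72 h, against 52.1, 46.3 and 41.5 CPM in PBS libraries, a log2 change of 1.27 ± 0.21 (adjusted p = 0.000486). The membrane anchor Sdhd changed by 1.25 and the other anchor, Sdhc, by 0.50, both called. Sdha, the flavoprotein that binds succinate, had 160, 187, 165 and 149 CPM in FP libraries, against 184, 161 and 157 CPM in PBS libraries. The Sdha groups overlapped, and the log2 change was -0.02 ± 0.09. Sdha was also not called at 16 h, where it had 186 to 196 CPM in FP libraries and 162 to 205 CPM in PBS libraries, while Sdhb (0.47) and Sdhd (0.51) were higher.

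All 7 subunits of complex III tested at 72 h were higher in FP than in PBS, with a median log2 change of 1.42. Uqcr10, a small subunit, had 84.7, 66.5, 46.9 and 33.5 CPM in FP libraries, against 23.1, 19.5 and 16.1 CPM in PBS libraries, a log2 change of 1.56 ± 0.27 (adjusted p = 0.000608). Uqcrq (1.48) and Uqcr11 and Uqcrb (1.42 each) followed. Uqcrfs1, the Rieske iron-sulphur protein, changed by 1.22, and the core protein Uqcrc2 by 0.87, the smallest change of the 7. At 16 h, 6 of 7 were higher, led by Uqcrq with 40.9, 36.9, 45.5 and 42.7 CPM in FP libraries, against 18.5, 20.8, 32.7 and 26.6 CPM in PBS libraries (0.75 ± 0.14, adjusted p = 0.000324). Uqcrh, the hinge protein, was the exception at 16 h (-0.16, adjusted p = 0.401). It had 1563, 1458, 1472 and 1498 reads in FP libraries, within the 1093, 1362, 1908 and 2080 reads of PBS libraries. At 72 h it changed by 1.15, and the difference between these times was not called. Cyc1, the cytochrome c1 subunit that the symbol rule misses, and Cycs, cytochrome c itself, were higher at both times, Cycs by 0.81 at 16 h and 1.54 at 72 h.

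Complex IV held the member with the largest increase, Cox7a2. Of the 12 complex IV subunits tested at 72 h, 11 were higher in FP, with a median log2 change of 1.43. Cox7a2, a small subunit that occurs in most tissues, had 162, 162, 79.9 and 57.1 CPM in FP libraries, against 32.2, 27.4 and 24.6 CPM in PBS libraries. The lowest FP library lay above the highest PBS library, and the log2 change was 2.04 ± 0.32 (adjusted p = 0.000323). Ndufa4 had 135, 125, 74.4 and 58.9 CPM in FP libraries, against 36.4, 30.1 and 25 CPM in PBS libraries (1.68 ± 0.27, adjusted p = 0.000334), and Cox6b1, which faces the intermembrane space, changed by 1.64. Cox5a, a subunit of the matrix side, had the smallest adjusted p of all members at 72 h (1.32 ± 0.14, adjusted p = 2.07e-05). Cox5b and Cox4i1, the largest nuclear-encoded subunit of the complex, changed by 1.40 and 1.16. At 16 h, 5 of the 12 were higher, Cox5a most (1.00 ± 0.12), Cox6a1 (0.77), Cox7b (0.75), Ndufa4 (0.74) and Cox5b (0.57). Cox7a2 at 16 h had 57.1 ± 3.18 CPM in FP libraries and 40.2 ± 14 CPM in PBS libraries (SD, n = 4 each), and its log2 change of 0.50 was not called (adjusted p = 0.0215).

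Cox7a2l, a homologue of Cox7a2 that joins complexes III and IV into a supercomplex and of which C57BL/6 strains carry a shortened form, went the other way at 16 h. It had 63.1, 61.2, 60.3 and 58.9 CPM in FP libraries, against 93.8, 104, 135 and 123 CPM in PBS libraries. Every FP library was below every PBS library, and the log2 change was -0.91 ± 0.10 (adjusted p = 1.78e-06). It was called lower in all 14 settings tried, with log2 changes from -0.99 to -0.76. At 72 h it had 142, 163, 119 and 97.1 CPM in FP libraries and 124, 94.5 and 88.2 CPM in PBS libraries, which overlap (0.35 ± 0.19, adjusted p = 0.148). The difference between its FP effect at 72 h and at 16 h was 1.23 ± 0.23 (adjusted p = 0.000989), and that between 16 h and 1.5 h was -0.83 ± 0.18 (adjusted p = 0.00489), which was called in 10 of 20 settings.

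In the ATP synthase, 15 of 16 subunits were higher in FP at 72 h and 10 of 16 at 16 h, with median log2 changes of 1.10 and 0.58. Atp5b, the catalytic beta subunit, had 660, 736, 630 and 453 CPM in FP libraries at 72 h, against 337, 288 and 250 CPM in PBS libraries, a log2 change of 1.09 ± 0.17 (adjusted p = 0.000274). At 16 h it had 621, 578, 668 and 662 CPM in FP libraries, against 282, 314, 419 and 302 CPM in PBS libraries (0.94 ± 0.10, adjusted p = 1.57e-06). The alpha subunit Atp5a1 and the gamma subunit Atp5c1, the central shaft, changed by 0.89 and 1.12 at 72 h. Atp5g1, one of the genes for the proton-carrying ring subunit c, had the largest increase of all members at 16 h, with 51.0, 49.8, 53.2 and 51.7 CPM in FP libraries, against 18, 20.9, 26.8 and 23.2 CPM in PBS libraries (1.21 ± 0.10, adjusted p = 1.04e-07). The genes Atp5g2 and Atp5g3 encode the same mature ring subunit, and at 16 h Atp5g3 changed by 0.78 and Atp5g2 by 0.30, which was not called. The small membrane subunits Atp5k, Atp5mpl and Atp5j2 had the largest increases of the enzyme at 72 h, of 1.71, 1.62 and 1.58. Atp5k had 69.9, 56.8, 34.8 and 24.4 CPM in FP libraries, against 15.6, 15.1 and 11.9 CPM in PBS libraries, which do not overlap. Atp5l, subunit g of the membrane part, was the subunit not called at 72 h, with 23.7 ± 0.961 CPM in FP libraries and 20.7 ± 2.73 CPM in PBS libraries (SD, n = 4 and 3; 0.19 ± 0.12).

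**Figure D3:**
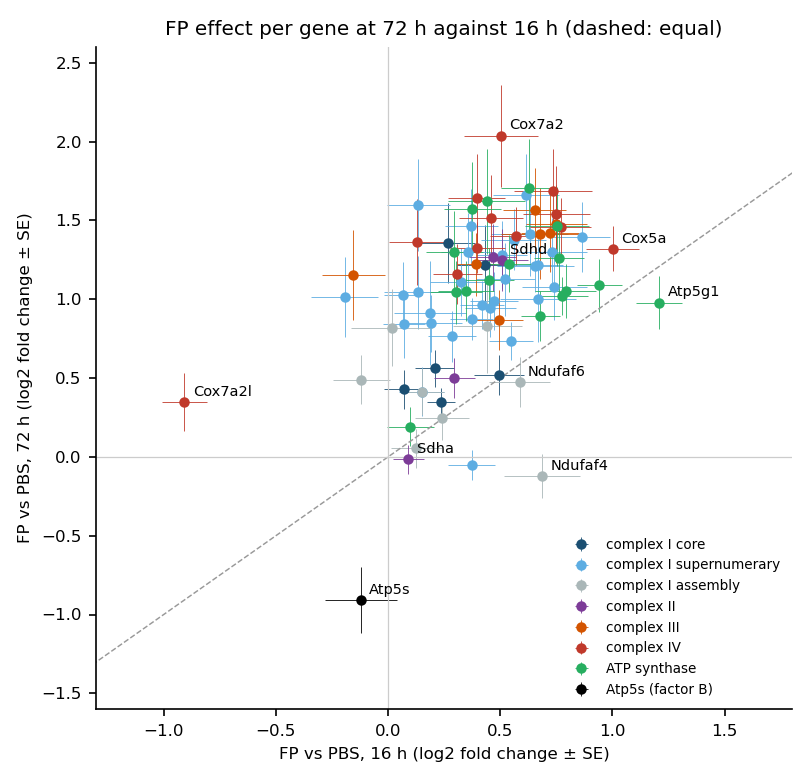
log2 fold change of FP against PBS at 72 h (y axis) plotted against that at 16 h (x axis), 1 point per gene with the SE of each, coloured by complex, without the tissue isoforms; the dashed line marks equal changes. Most points lie above the line, Cox7a2l lies at -0.91 on the x axis, and Ndufaf4 and Sdha lie near 0 on the y axis.

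The 2 members lower in FP at 72 h were of low level. Atp5s had 1.42, 1.89, 1.97 and 2.61 CPM in FP libraries, against 3.4, 3.92 and 3.94 CPM in PBS libraries (-0.91 ± 0.21, adjusted p = 0.00378). Cox6a2, the heart and skeletal muscle form of a complex IV subunit, had 0, 0.176, 0.0468 and 0 CPM in FP libraries, against 1.55, 5.8 and 3.98 CPM in PBS libraries. That is 5 reads in 4 FP libraries and 290 reads in 3 PBS libraries, a ratio per scaled library of 0.0142 with an exact 95% interval of 0.00459 to 0.0336 that covers counting error only (fitted log2 change -5.96, adjusted p = 5.7e-05). Cox6a2 shares 70 exon bases with Itgad, an integrin gene of myeloid cells on the opposite strand, and whether the counting used strand is not stated. Itgad had 1.31, 4.53, 0.328 and 1.58 CPM in the same FP libraries, against 41.7, 123 and 87.5 CPM in PBS libraries, and 8 of 9 myeloid markers were lower in FP (median log2 change -3.39); the part of either in the Cox6a2 result was not tested. The tissue isoforms Cox6b2, Cox7a1, Cox8b and Ndufa4l2 were not called at 72 h, at means of 0.16 to 2.33 CPM in both groups.

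Levels differed between the complexes. Per kb of exon in PBS libraries at 72 h, the median level was 32.6 CPM per kb for complex IV, 25.6 for complex III, 23.1 for the ATP synthase, 21.5 for complex II, 16.4 for the core and 15.7 for the supernumerary subunits of complex I, and 4.61 for its assembly factors. In FP libraries the same medians were 95.8, 68.4, 59.8, 45.1, 31.0, 31.6 and 5.21 CPM per kb. The order of the first 4 classes and the place of the assembly factors at the bottom were the same in both groups, with no test of the order. Atp5a1 was the highest member per kb in PBS libraries (96.5 CPM per kb), and Cox6b1 in FP libraries (218 CPM per kb).

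Gene length moved with the size of the change at 72 h. Members with under 1 kb of exon had a median log2 change of 1.33, those of 1 to 2 kb 1.16, those of 2 to 4 kb 0.96, and those of 4 kb and over 0.59. Other protein-coding genes of the same lengths had medians of 0.31, 0.21, 0.09 and -0.02. Spearman's rho between log2 change and exon length was -0.33 over 89 members and -0.14 over 12925 other protein-coding genes, as a description across genes that share libraries. At 16 h the medians of the members were 0.62, 0.37, 0.44 and 0.33 in the same order, those of other genes 0.02, -0.04, -0.01 and -0.04, and rho over 87 members was -0.06. In each class of length and at both times the median of the members was above that of the other genes. The part of length in the differences between complexes was not tested.

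**Figure D4:**
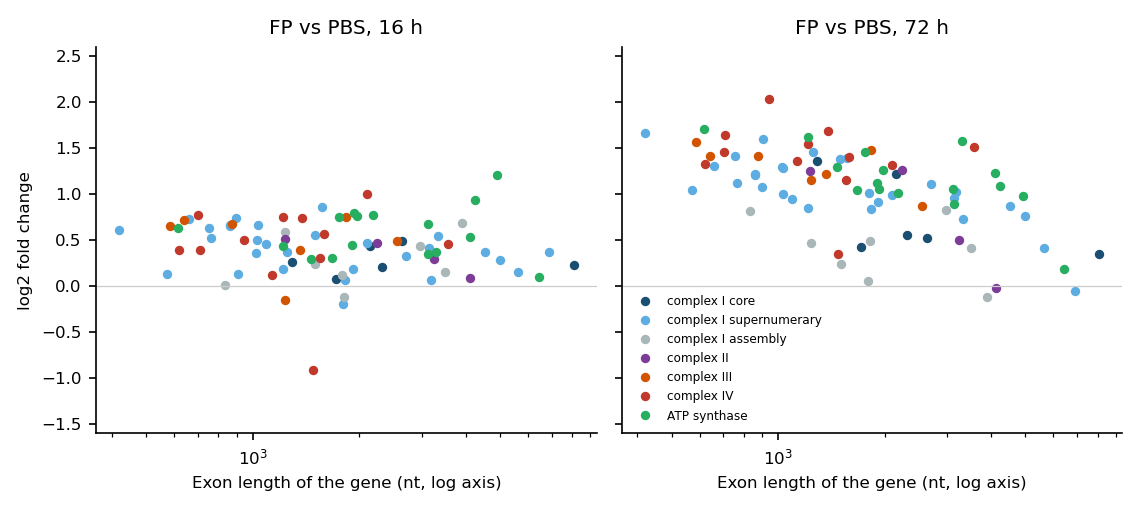
log2 fold change of FP against PBS (y axis) against exon length in nucleotides (x axis, log scale), 1 point per gene coloured by complex, at 16 h (left) and 72 h (right). At 72 h the points fall with length, from a median of 1.33 under 1 kb to 0.59 at 4 kb and over, and at 16 h the slope is small (rho -0.06).

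The pathway around the chain was read from lists of genes that are not members. The mitochondrially encoded subunits, of which 7 of 13 were tested, held no gene called at 72 h or at 16 h, with medians of 0.58 and 0.18. Of 17 genes of the tricarboxylic acid cycle and pyruvate dehydrogenase, 10 were higher and none lower at each of the 2 times, against 17.3% of all genes higher and 13.1% lower at 72 h and 14.4% and 14.3% at 16 h, among them at 72 h Cs, citrate synthase (0.89), Idh3a (0.91), Mdh2 (0.91) and Fh1, fumarase (1.07). Of 17 glycolytic genes, 12 were higher at 72 h and 11 at 16 h, among them at 72 h Pgk1 (1.69), Gapdh (1.60), Tpi1 (1.59) and Ldha (1.57). Of 3 tested carriers of adenine nucleotides and phosphate, the ADP/ATP carriers Slc25a4 (1.38) and Slc25a5 (1.28) were higher at 72 h. Of 22 assembly factors of complex IV, 8 were higher at 72 h, among them Cmc2 (2.08) and Pet100 (1.30). Of 11 genes of cristae and inner membrane structure, 4 were higher and Taz, the cardiolipin-remodelling enzyme, was lower (-0.77). Of 14 regulators of mitochondrial biogenesis, 1 was higher and 1 lower at 72 h, a smaller share in each direction than among all genes. They were Gabpa, which encodes a subunit of nuclear respiratory factor 2 (0.27), and the coactivator Ppargc1b (-0.90). At 16 h 3 of the 14 were higher (Pprc1, 0.98, Myc, 0.84, and Tfb1m, 0.47) and none lower, with a median of 0.01 over the list. Each list is given by its counts and carries no test of its own. The lists were chosen with earlier results of these data known, and the libraries are those of the members.

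Before 16 h, the member that stood out was Ndufaf4, an assembly factor of complex I. At 1.5 h it had 34.5, 28.9, 38.6 and 29.1 CPM in IL2 libraries and 27.2, 28.8, 23.9 and 17.3 CPM in FP libraries, against 13.1, 16.7, 16.7 and 11.1 CPM in PBS libraries. All 8 treated libraries lay above all 4 PBS libraries. The log2 change was 1.19 ± 0.17 after IL2 (adjusted p = 0.00018), called in all 14 settings tried, and 0.76 ± 0.17 after FP (adjusted p = 0.00938), called in 5 of 14. At 4 h it had 50.5, 70.3 and 39.4 CPM in FP libraries and 53.7, 34.5, 35.4 and 32.2 CPM in IL2 libraries, against 17.8, 16.4 and 14.1 CPM in PBS libraries. The groups again did not overlap, with log2 changes of 1.73 ± 0.26 after FP (adjusted p = 0.00793), called in 7 of 13 settings, and 1.27 ± 0.25 after IL2 (adjusted p = 0.0272), called in 3 of 14. At 16 h it had 20.0, 26.4, 28.9 and 22.3 CPM in FP libraries, against 12.3, 11.2, 18.7 and 18.4 CPM in PBS libraries (0.69 ± 0.17, adjusted p = 0.00349), and IL2 libraries were at 11.1 ± 1.78 CPM (SD, n = 4; -0.45, not called). At 72 h FP and PBS libraries were at 13.4 ± 1.87 and 14.5 ± 0.235 CPM (SD, n = 4 and 3). In cells treated with IL2 in vitro it had 8.67, 9.48 and 8.00 CPM, against 7.63, 6.49 and 7.44 CPM with PBS, a log2 change of 0.28 that was not called (adjusted p = 0.0826).

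**Figure D5:**
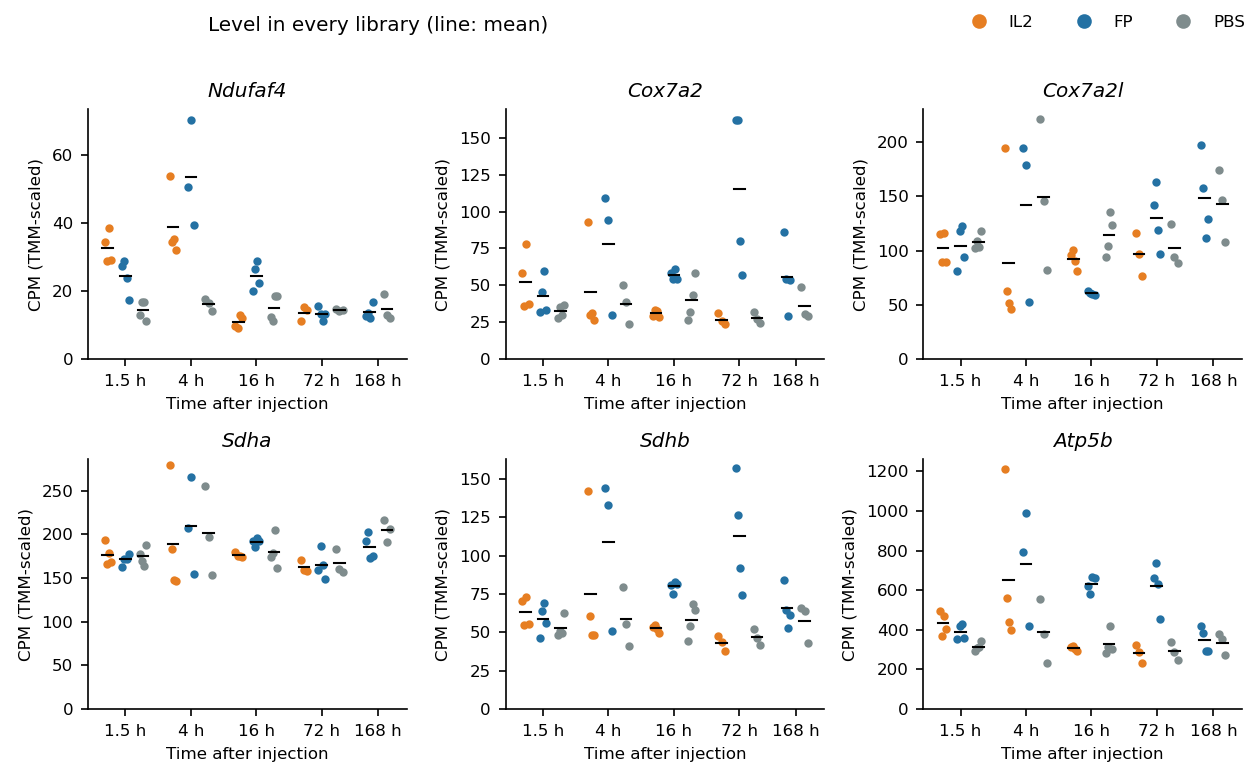
Level in CPM scaled by TMM (y axis, from 0) of 6 genes in every library at each time after injection (x axis), with points for libraries of IL2, FP and PBS and a line at each mean. Ndufaf4 is higher in all treated libraries at 1.5 h and 4 h, Cox7a2, Sdhb and Atp5b are higher in FP libraries at 72 h, Sdha is level at 16 h and 72 h, and Cox7a2l is lower in FP libraries at 16 h.

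Promoters of the members were searched for binding motifs of factors known to act on respiratory chain genes. The windows, from RefSeq on GRCm38.p6, ran from 250 bases before to 50 bases after each gene's start, and 74 members had one, of 27025 genes, Cox7b2, which has no expression value here, among the 74. Both strands were searched for the palindrome made of GCGCA followed by its reverse complement (nuclear respiratory factor 1, NRF1), for AAGATGGC (YY1), CCGGAAG (ETS factors, which include nuclear respiratory factor 2) and CACGTG (the E-box of Myc), none of which contains another. The NRF1 letters were in 7 members (9.46%), against 1.07% of all genes with a window, the YY1 letters in 10 (13.5%), against 3.19%, the ETS letters in 18 (24.3%), against 9.93%, and the E-box in 5 (6.76%), against 8.09%. The 27025 genes were not limited to expressed genes or matched to the members in base composition, and the part of either in these shares was not tested. Of 10 windows with the YY1 letters on the gene's own strand, 9 had the first match between 11 and 39 bases after the start. Matches on the other strand were left out of these positions. Of 6 tested members with the NRF1 letters 4 were higher at 72 h, and of 65 with a window but without them 50 were. The 5 members whose NRF1 letters lie wholly before the start are printed because they include Ndufaf4, the early gene, and Atp5k, the largest increase of the ATP synthase at 72 h. Each stretch runs 5′ to 3′ on the gene's strand and up to 50 bases to either side of the motif, which is in capitals. The motif begins 113 bases before the start in Ndufaf4 (chr4:24897920-24898029, plus strand), 50 in Atp5k (chr5:108434400-108434499, minus strand), 42 in Atp5g2 (chr15:102671048-102671139, minus strand), 162 in Cox6a1 (chr5:115349061-115349170, minus strand) and 60 in Ndufa11 (chr17:56717652-56717761, plus strand).
Ndufaf4: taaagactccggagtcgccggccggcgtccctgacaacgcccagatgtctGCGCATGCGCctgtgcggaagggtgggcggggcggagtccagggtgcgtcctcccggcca
Atp5k: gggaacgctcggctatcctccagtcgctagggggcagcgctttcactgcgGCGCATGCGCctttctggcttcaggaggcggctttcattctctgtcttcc
Atp5g2: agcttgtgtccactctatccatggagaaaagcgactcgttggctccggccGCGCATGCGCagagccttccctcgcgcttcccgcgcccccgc
Cox6a1: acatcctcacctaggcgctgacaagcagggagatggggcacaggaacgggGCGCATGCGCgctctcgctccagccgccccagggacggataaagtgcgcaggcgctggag
Ndufa11: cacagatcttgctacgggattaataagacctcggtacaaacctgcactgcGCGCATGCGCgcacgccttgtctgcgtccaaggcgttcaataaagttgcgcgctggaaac

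The 5 genes with these letters were not all called at the same times, and the times overlapped. Ndufaf4 was called at 1.5 h and not at 72 h, while Atp5k (1.71), Cox6a1 (1.46), Atp5g2 (1.04) and Ndufa11 (0.95) were higher at 72 h and none of these 4 was called at 1.5 h. At 16 h after FP, Ndufaf4 and Cox6a1 were both called higher. A motif match is a description of the letters in the window.

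At 1.5 h after IL2, 4 of 86 members were higher than in PBS and none lower, against 8.39% of all genes higher and 5.79% lower. Their median log2 change was 0.29, against -0.01 over all genes, and 42 were higher and 3 lower at an unadjusted p below 0.05. Beside Ndufaf4 the 4 were Ndufb3, a supernumerary subunit of complex I (0.69), Atp5g1 (0.66) and Atp5b (0.47). Atp5g1 had 31.8, 26.3, 30.1 and 32.4 CPM in IL2 libraries, against 17.9, 18, 15.4 and 24.7 CPM in PBS libraries, which do not overlap. Atp5b had 494, 369, 469 and 402 CPM in IL2 libraries, against 293, 308, 311 and 344 CPM in PBS libraries. The count was 1 without any of PBS replicates 1, 2 and 3 or IL2 replicate 1, 2 without IL2 replicate 3, 7 without PBS replicate 4 and 8 without IL2 replicate 2. After FP at 1.5 h, Ndufaf4 was the 1 member of 86 called, with none lower, against 4.39% of all genes higher and 2.28% lower, and the median of the members was 0.21, and 0.11 without FP replicate 3. Between FP and IL2 at 1.5 h no member was called, as no gene was (0%), with a median of -0.11 and 1 member lower at an unadjusted p below 0.05. That median was -0.03, -0.05 and -0.04 without FP replicate 1, IL2 replicate 1 and IL2 replicate 3, and -0.18 without FP replicate 3 or IL2 replicate 2. Of the 14 regulators of mitochondrial biogenesis, 2 were higher and none lower at 1.5 h after IL2, and likewise after FP. They were Myc (1.77 after IL2 and 1.71 after FP) and Pprc1, a coactivator related to Ppargc1b (1.55 after IL2 and 1.26 after FP), and the medians of the list were 0.14 after IL2 and 0.05 after FP. These comparisons share the PBS libraries.

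At 4 h after FP, Ndufaf4 was the 1 member of 88 that was higher, with none lower, against 0.720% of all genes higher and 0.193% lower. The median log2 change was 0.72, against 0.05 over all genes. It was 0.46 without PBS replicate 4 and 1.00 without FP replicate 4, the libraries of their groups with the lowest share of reads on the members. At an unadjusted p below 0.05, 14 members were higher and none lower, and DESeq2 called 3 higher. No member was called with the IL2 libraries, and so IL2 replicate 1, left out of the fit. At 4 h after IL2 no member was called, with or without IL2 replicate 1, against 0.652% of all genes in either direction, with 5 higher and 1 lower at an unadjusted p below 0.05 and 2 higher by DESeq2. The median after IL2 was 0.23 with all libraries, -0.22 without IL2 replicate 1, -0.02 without PBS replicate 4 and 0.51 without PBS replicate 1, so its direction turned with 1 library. With the replicate number as a block, 7 members were called higher after FP (Ndufaf4, Atp5g1, Ndufc2, Cox7b, Ndufa1, Uqcrq and Ndufab1) and 1 after IL2 (Ndufaf4, 1.30, adjusted p = 0.00235). Atp5g1 had 85.5, 98.9 and 40.7 CPM in FP libraries, against 36.8, 26.0 and 15.4 CPM in PBS libraries. Its lowest FP library was close to its highest PBS library, and its log2 change of 1.53 had an adjusted p of 0.166 without the block and 0.002 with it. The block takes same-numbered libraries as belonging together, which the labels do not state. Between FP and IL2 at 4 h no member was called, nor any gene (0%), with a median of 0.49, 0.97 without IL2 replicate 1, 0.81 without FP replicate 4, 0.27 without FP replicate 1 and 0.30 without FP replicate 2, and 1 member higher at an unadjusted p below 0.05.

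After IL2 no member was called at the 2 later times. None of 87 was called against PBS at 16 h, where 0.350% of all genes were, the median was -0.18 (-0.28 without PBS replicate 1 and -0.08 without PBS replicate 3), and at an unadjusted p below 0.05 no member was higher and 21 were lower. DESeq2 called none. At 72 h none of 89 was called after IL2, nor any gene (0%), by edgeR or DESeq2, with a median of -0.05 and 1 member higher at an unadjusted p below 0.05. The direction of that median turned with 1 library, since it was 0.03 without PBS replicate 1, 0.02 without IL2 replicate 3, -0.13 without PBS replicate 3 and -0.15 without IL2 replicate 1. Cox7a2 at 72 h had 31.4, 25.7 and 23.6 CPM in IL2 libraries, within the range of PBS libraries apart from 1 below it. Set directly against IL2, which shares the FP libraries with the comparison against PBS, FP had 65 members higher and 1 lower of 87 at 16 h, against 16.8% of all genes higher and 14.9% lower, and 69 higher and 2 lower of 89 at 72 h, against 17.9% and 12.9%. The medians were 0.61 and 1.13. At 16 h the complex IV subunits were 11 higher and 1 lower (Cox7a2l) of 12, and at 72 h all 6 core subunits of complex I were higher. At 72 h, 71 were called in either direction, 49 without IL2 replicate 3 and 75 without FP replicate 4.

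The FP effects at different times were compared with each other as differences of log2 changes, each table keeping its own PBS libraries. From 16 h to 72 h, the median difference over 88 members was 0.64, against 0.00 over all genes, but 1 member was called higher (Cox7a2l, above) and 2 lower (Cox6a2, -5.36, and Ndufa4l2, -2.42), against 5.43% and 5.49% of all genes. Ndufa4l2 had only 2 to 17 reads in each FP and PBS library of these times. At an unadjusted p below 0.05, 44 members were higher and 5 lower. DESeq2 called 10 higher and 2 lower, and without FP replicate 4 of 72 h, edgeR called 25 higher and 1 lower. The count was 7 without PBS replicate 1 of 16 h and 5 without PBS replicate 1 of 72 h. FP replicate 4 had the lowest level of the 4 FP libraries at 72 h in Cox7a2, Sdhb, Ndufa1 and Atp5b, among others, and the members' share of its reads was 0.474%.

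From 72 h to 168 h the members' FP effects differed by a median of -0.74, against 0.04 over all genes. None of 86 was called higher and 3 were lower, Cox5a (-1.27 ± 0.23), Sdhd (-1.26 ± 0.29) and Atp5g3 (-0.95 ± 0.18), against 1.57% of all genes higher and 4.65% lower, and 43 were lower at an unadjusted p below 0.05. The count was 15 without FP replicate 4 of 72 h, 7 without FP replicate 1 of 168 h, and 1 without PBS replicate 2 or 3 of 72 h. At 168 h itself no member of 88 was called in FP against PBS by edgeR or DESeq2, where 1.21% of all genes were. The median was 0.26, and 17 members were higher and 3 lower at an unadjusted p below 0.05. It was 0.14 without FP replicate 1, 0.15 without PBS replicate 3 and 0.40 without PBS replicate 1. Cox5a at 168 h had 29.9, 22.9, 19.9 and 18.9 CPM in FP libraries and 21.5, 22.9 and 23.3 CPM in PBS libraries, which overlap. Cox7a2 had 86.5, 54.7, 29.4 and 53.5 CPM in FP libraries and 49.0, 30.3 and 29.0 CPM in PBS libraries, which overlap too. From 1.5 h to 16 h the median difference was 0.27, no member was called higher and Cox7a2l was called lower, against 2.82% of all genes higher and 0.931% lower, with 18 members higher at an unadjusted p below 0.05. Without PBS replicate 3 of 16 h 9 members were called, all higher, and without FP replicate 2 or 3 of 1.5 h 2, both higher. The count was 0 without PBS replicate 4 or FP replicate 2, 3 or 4 of 16 h, or PBS replicate 1 or 2 of 1.5 h.

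In cells treated in vitro with IL2, none of 85 members was called against PBS, where 13.9% of all genes were, and the median was 0.02 (0.01 without IL2 replicate 1 and 0.04 without IL2 replicate 3). At an unadjusted p below 0.05, 4 were higher and 1 lower, and DESeq2 called none. Atp5b was at 408 ± 18.6 CPM with IL2 and 384 ± 9.95 CPM with PBS (SD, n = 3 each), a log2 change of 0.09 ± 0.04 that was not called, and Uqcrfs1 had the smallest adjusted p (0.20 ± 0.06, adjusted p = 0.0143). The 4.48% variation of this table was the lowest of the 8.

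In the high-dose table, where myeloid markers summed to 36.1 to 52.8 CPM in IL2 libraries and 77.4 to 91.7 CPM in PBS libraries, no member of 88 was called after IL2, nor any gene (0%), by edgeR or DESeq2. The median was 0.33, with 10 members higher and 1 lower at an unadjusted p below 0.05. It was 0.14 without IL2 replicate 2, 0.16 without PBS replicate 2 and 0.53 without PBS replicate 3. Cox8a, a small complex IV subunit, had 58.1, 106 and 71.3 CPM in IL2 libraries, against 44.7, 31.3 and 55.6 CPM in PBS libraries. Its groups did not overlap, but its log2 change of 0.84 ± 0.30 had an adjusted p of 0.242.

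After restimulation no member was called in any of the 3 comparisons by edgeR or DESeq2. The repeated FP was 0.27 above PBS in the median of 88 members (0.629% of all genes called), with 13 higher and 4 lower at an unadjusted p below 0.05, and 0.16 above it without PBS replicate 2. It was 0.32 above the single injection (0.585% of all genes called), with 26 higher and 2 lower at an unadjusted p below 0.05. The single injection was at -0.05 against PBS (0.0111% of all genes called), with 1 higher and 1 lower at an unadjusted p below 0.05. The direction of that median turned with 1 library: it was 0.07 without PBS replicate 3, and -0.09, -0.16 and -0.12 without PBS replicate 1, PBS replicate 2 and replicate 1 of the single injection. Cox8a had 74.0, 78.2, 50.9 and 67.3 CPM after repeated FP, against 52.0, 39.3 and 42.0 CPM after the single injection and 45.2, 36.4 and 56.5 CPM after PBS. Replicate 3 of repeated FP lay within the other groups, and the log2 changes were 0.61 ± 0.19 against the single injection (adjusted p = 0.131) and 0.56 ± 0.19 against PBS (adjusted p = 0.129). Myeloid markers summed to 29.2 to 70.5 CPM after repeated FP, 128 to 138 CPM after the single injection and 71.7 to 146 CPM after PBS. Ndufaf4 had 16.5 ± 3.27 CPM after the single injection and 12.0 ± 1.38 CPM after PBS (SD, n = 3 each), a log2 change of 0.46 that was not called (adjusted p = 0.534). The single-injection libraries were uneven, with 569, 628 and 578 Ndufaf4 reads in totals of 46.1, 33.4 and 30.7 M. Replicate 1 lay within the PBS levels and the others above them. Treg markers summed to 3555 to 5182 CPM after the single injection, 4815 to 5694 CPM after repeated FP and 3543 to 3732 CPM after PBS.

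Some values are uncertain because of neighbouring genes. By GENCODE M21, exons of 29 members share bases with a gene on the opposite strand, with the largest shares of exon length in Ndufaf2 (65.6%, B230220B15Rik), Ndufb6 (39.0%, Smim27) and Ndufa13 (30.0%, Tssk6). Atp5j shares 12.7% with Gabpa, the regulator named above. Exons of 5 members share bases with a gene on the same strand, among them Ndufb9 (19.5%, Gm49356) and Atp5o (14.6%, Donson). Many respiratory chain genes also have processed pseudogenes, whose reads can fall to either copy.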

How the data were processed

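Counts of reads per gene were taken as deposited. Per the submitters' processing notes the authors used STAR 2.5.0 on GRCm38 and featureCounts 1.5.0; strand use in counting is not given in the sources used here. Both runs of a library were summed, and 2 libraries of the 4 h table with contradicting labels were left out. edgeR 4.0.16 (with limma 3.58.1 in R 4.3.3) was run table by table, with TMM scaling, filterByExpr and 1 mean per group, and its 2-sided quasi-likelihood F test gave p-values, adjusted by Benjamini-Hochberg over all genes tested and called below 0.01. SE is the absolute log2 change over the square root of F. Levels are TMM-scaled CPM, per kb of GENCODE M21 exon where said. DESeq2 1.42.0, scaling, filtering, blocking and left-out libraries were alternatives, and the test was tried on simulated data.

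Replicate numbers come from the labels. Deviations of same-numbered libraries correlated above 0.1 in every pair for IL2 and PBS at 4 h (0.375 to 0.798), FP and PBS at 4 h (0.180 to 0.821) and IL2 and PBS at 72 h (0.291 to 0.423), and not elsewhere. At 4 h some libraries with different numbers also correlated. These were FP replicate 2 with PBS replicate 1 (0.614) and IL2 replicate 1 (0.743), and IL2 replicate 3 with PBS replicate 4 (0.759), among others.

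Genes were named by rule: in each complex the 3 largest called changes in each direction at 5 CPM or more, plus catalytic, tissue-restricted and assembly-factor genes. 1 gene that the rule names is not reported here. Others, such as Cox8a, Uqcrh, Ndufab1 and Atp5l, were chosen after their values were seen. Members and lists were chosen with earlier results of these data known.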

Additional observations from a re-analysis of the deposited data

Results flagged for a closer look

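Within groups of 4 libraries, the highest or lowest value was compared with the other 3 for the members' share of reads and 19 members, and chance alone would set apart about 1 in 20 of the 190 groups checked. Replicate 1 of IL2 at 4 h stood apart in its share of reads on the members (0.827%) and in 11 genes: Ndufaf4 (53.7 CPM), Atp5g1 (123 CPM), Ndufb3 (40.0 CPM), Sdhb (142 CPM), Sdhd (76.7 CPM), Uqcrb (71.3 CPM), Uqcrq (89.3 CPM), Cox7a2 (92.9 CPM), Cox5a (67.0 CPM), Cox7a2l (194 CPM) and Atp5e (202 CPM). In Sdhb the other IL2 libraries at 4 h were at 48.1 to 60.5 CPM, and in Ndufaf4, which stayed above PBS without it, at 32.2 to 35.4 CPM. The FP and PBS groups at 4 h, with fewer than 4 libraries each, were not part of this check.

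Replicate 3 of the repeated FP injection was below the other 3 in Uqcrb (26.9 CPM, against 36.5 to 37.9 CPM) and Cox7a2 (29.1 CPM, against 38.9 to 40.3 CPM). Replicate 4 of FP at 168 h was above the others in Atp5s (4.42 CPM, against 3.52 to 3.58 CPM).

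The FP effect differed between times, by a test of the difference, in Cox7a2l (72 h minus 16 h 1.23, and 16 h minus 1.5 h -0.83), Cox6a2 (72 h minus 16 h -5.36), Ndufa4l2 (72 h minus 16 h -2.42), Cox5a (168 h minus 72 h -1.27), Sdhd (168 h minus 72 h -1.26) and Atp5g3 (168 h minus 72 h -0.95). Cox6a2 and Ndufa4l2 were below 6 CPM in every library of these tables. Ndufa4l2 had 3, 6, 3 and 2 reads in FP libraries at 72 h, against 5, 15 and 13 in PBS libraries. At 16 h it had 8, 17, 14 and 15 reads in FP libraries, against 7, 6, 10 and 4 in PBS libraries.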

How the results depend on the processing

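Of 264 called values of members over all comparisons, none reversed under the alternatives run, all stayed called with DESeq2 and without the low-count filter, and 262 with RLE scaling. With only the groups compared in the fit 30 of 257 were no longer called, with the first run alone 10 of 140, with the block 1 of 257, and over all fits without 1 library 285 of 2017. Counts moved by over 1.5 times as follows. DESeq2 called 9 members after IL2 at 1.5 h, 2 after IL2 at 4 h, 3 after FP at 4 h, and 12, 14 and 4 in the differences of FP effects between 72 h and 16 h, 168 h and 72 h, and 16 h and 1.5 h. After FP at 1.5 h the count was 0 with RLE scaling and 0 with only the groups compared, and after FP at 4 h it was 0 with only the groups compared. A tag in the column names of the 4 h table, of unstated meaning, used as a factor after seeing the data, gave 5 members after IL2 and 10 after FP. The cause was not tested.

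With the replicate number as a block, 1 member was called after IL2 and 7 after FP at 4 h. Same-numbered libraries correlated there, but so did some with different numbers. FP replicate 2 correlated at 0.180 with PBS replicate 2 and at 0.614 with PBS replicate 1. Same-numbered libraries of IL2 and PBS at 72 h also correlated, and the count there stayed 0. At 168 h, where same-numbered libraries share only a number, the block gave 3 (Uqcrb, Atp5mpl and Ndufa13). In the other comparisons the block kept each count within 1.5 times, with 50 against 45 after FP at 16 h and 76 against 69 at 72 h.

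Leaving out 1 library at a time, the count of called members ranged from 32 to 57 (FP at 16 h), 42 to 73 (FP at 72 h), 59 to 65 and 49 to 75 (FP against IL2 at 16 h and 72 h), 1 to 8 (IL2 at 1.5 h), 0 to 1 (FP at 1.5 h, FP at 4 h and in vitro), 2 to 26 (72 h minus 16 h), 1 to 15 (168 h minus 72 h) and 0 to 9 (16 h minus 1.5 h). The median log2 change of the members took either sign after IL2 at 4 h (-0.22 to 0.51), after IL2 at 72 h (-0.15 to 0.03) and for the single injection against PBS (-0.16 to 0.07). It kept its sign but moved by over 1.5 times for FP against PBS at 1.5 h (0.11 to 0.29), 4 h (0.46 to 1.00), 168 h (0.14 to 0.40) and restimulation (0.16 to 0.39), IL2 against PBS at 16 h (-0.28 to -0.08), in vitro (0.01 to 0.04) and at high dose (0.14 to 0.53), and FP against IL2 at 1.5 h (-0.18 to -0.03) and 4 h (0.27 to 0.97). With the column tag as a factor the medians for FP at 4 h were 0.37 against PBS and 0.15 against IL2. In the other comparisons each median stayed within 1.5 times of its value in all alternatives run. In the high-dose and 4 h tables the spread between replicates limits what could be called, so that no call there does not show that the members did not change.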
